A study of Bos taurus with 4 samples.

Results

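The genes described here are WRN and ERCC4, a DNA helicase gene and a repair nuclease gene, and the measurements are the positions in sperm DNA where the oxidised base 8-oxoG was called within or near them. The loci were chosen by the gene symbol that the deposited lists give to each called locus, so the values that chose them were the peak calls themselves, and the presence, number and annotation of the loci are given as a description with no test. Of the 984 loci in both lists together, 22 carried these symbols. WRN had 6 loci among the 370 of C13, a fertile bull, and 15 among the 614 of C14, an infertile bull. ERCC4 had 1 locus in C14 and 0 in C13.

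Sperm DNA came from 2 Korean native striped cattle bulls, C13 with normal fertility and C14 infertile with poorly motile and misshapen sperm, both aged 6 years. From each bull 1 library of DNA enriched for 8-oxoG and 1 library of unenriched input DNA were sequenced. In this assay (OG-seq) the 8-oxoG in sheared DNA is oxidised and biotinylated, the fragments are captured, and places with more captured fragments than the input predicts are called as loci. With 1 animal and 1 library pair on each side, fertility, animal, library and sequencing depth cannot be told apart, no test between the bulls was possible, and every interval given is for counting error only.

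8-oxoG is a guanine oxidised at its eighth ring position. It can pair with adenine during replication and is removed mainly by base excision repair, which the glycosylase OGG1 begins. WRN is a helicase and exonuclease of the RecQ family, lost in Werner syndrome, that unwinds unusual DNA structures such as guanine quadruplexes and takes part in replication fork and break repair. ERCC4, also called XPF, is the catalytic partner of ERCC1, and the pair cuts the damaged strand on the 5′ side of a bulky lesion in nucleotide excision repair and also acts in crosslink repair. Mature sperm carry out little DNA repair of their own.

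The ERCC4 locus was the only locus of either gene with a sequence in the lists, which give sequences for the 10 promoter loci of C14. It is shown because it was the locus of a repair gene nearest to a start site. The sequence is the first 300 of the 339 bases listed for chr25:12924067-12924405 (bosTau8), as listed and with no strand named, and capitals mark each run of at least 3 guanines.
ERCC4 locus: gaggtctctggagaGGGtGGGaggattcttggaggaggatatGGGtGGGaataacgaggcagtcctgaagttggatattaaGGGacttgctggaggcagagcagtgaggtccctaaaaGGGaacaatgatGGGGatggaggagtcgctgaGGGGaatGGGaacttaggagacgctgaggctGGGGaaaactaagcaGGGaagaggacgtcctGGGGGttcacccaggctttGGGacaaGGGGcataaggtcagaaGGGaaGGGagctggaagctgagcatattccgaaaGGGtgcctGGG

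The 300 bases held 18 such guanine runs, and the whole 339 bases held 19 against 3 runs of at least 3 cytosines. Guanine made up 40.7% of the listed bases, adenine 28.6%, thymine 16.8% and cytosine 13.9%, so the listed strand was purine-rich. The G + C share was 54.6%.

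All 21 WRN loci lay in 1 intron, intron 17 of 33 in the listed gene model (NCBI gene 505061, chr27:26263003-26449795 in bosTau8, plus strand, 186793 bp). From the first start to the last end of either list they covered a stretch of 60000 bp, 32.1% of the gene, and the summits lay between 34.4% and 66.4% of its length. The first locus began 64061 bp and the last 123863 bp after the transcription start site (TSS). None lay at the promoter, in an exon or in another intron. The gene is shorter in the annotation of a later assembly, ARS-UCD2.0, by about the length of this stretch. The intron placement, the share of the gene and the gene length therefore hold for the bosTau8 model only, and the placement of the stretch was not tested.

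In C13, 6 loci marked the intron. The pileup, which is the number of overlapping captured fragments at the summit, was 11 at chr27:26327083-26327284, 9 at chr27:26337726-26337956 and 10 at chr27:26342113-26342349. It was 11 at chr27:26359015-26359253, 17 at chr27:26366311-26366529 and 11 at chr27:26386866-26387063. The C13 loci were therefore much alike, with a median pileup of 11 against 9 over all C13 loci, and 5 of the 6 lay above that list median. The locus with 17 fragments had a 95% exact Poisson interval of 9.90 to 27.2, which overlapped the interval of 4.12 to 17.1 of the locus with 9. Fold enrichment over the input ranged from 8.18 to 12.9, and −log10 q from 8.36 to 17.7.

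In C14, 15 loci filled the same stretch, and their pileups ranged from 8 to 43 with a median of 27, against 18 over all C14 loci. From the TSS inward, the pileup was 25 at chr27:26327064-26327278, 9 at chr27:26329042-26329257 and 28 at chr27:26337616-26337925. A close pair followed, with summits 562 bp apart and pileups of 27 at chr27:26341596-26341806 and 41 at chr27:26342115-26342399. The second of this pair had the highest fold enrichment of all WRN loci, 17.5, while the first reached 5.97 on a local background of 3.69 fragments. The middle of the stretch held pileups of 31 at chr27:26347956-26348209, 21 at chr27:26359061-26359261 and 40 at chr27:26363411-26363680. The highest pileup of the gene, 43, was at chr27:26366310-26366520, where C13 also had its highest. Its 95% interval of 31.1 to 57.9 did not overlap that of C13 at this place, without allowance for depth. Next to it were weaker loci, with 17 fragments at chr27:26367251-26367464 and 15 at chr27:26370194-26370389.

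The far end held 4 loci of C14, with pileups of 42 at chr27:26380986-26381238, 20 at chr27:26382001-26382217, 30 at chr27:26383547-26383749 and 8 at chr27:26385946-26386195. The last of these was the weakest WRN locus, at a fold enrichment of 3.996 with −log10 q at 1.51. In C14, 11 of the 15 WRN loci lay above the list median of the pileup. A −log10 q of at least 5 was reached by 14 of the 15 WRN loci of C14, against 68.4% of all C14 loci, and by 6 of 6 in C13, against 70.0% of all C13 loci. Because these loci were chosen by being called, the counts are a description of the members only.

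**Figure D1:**
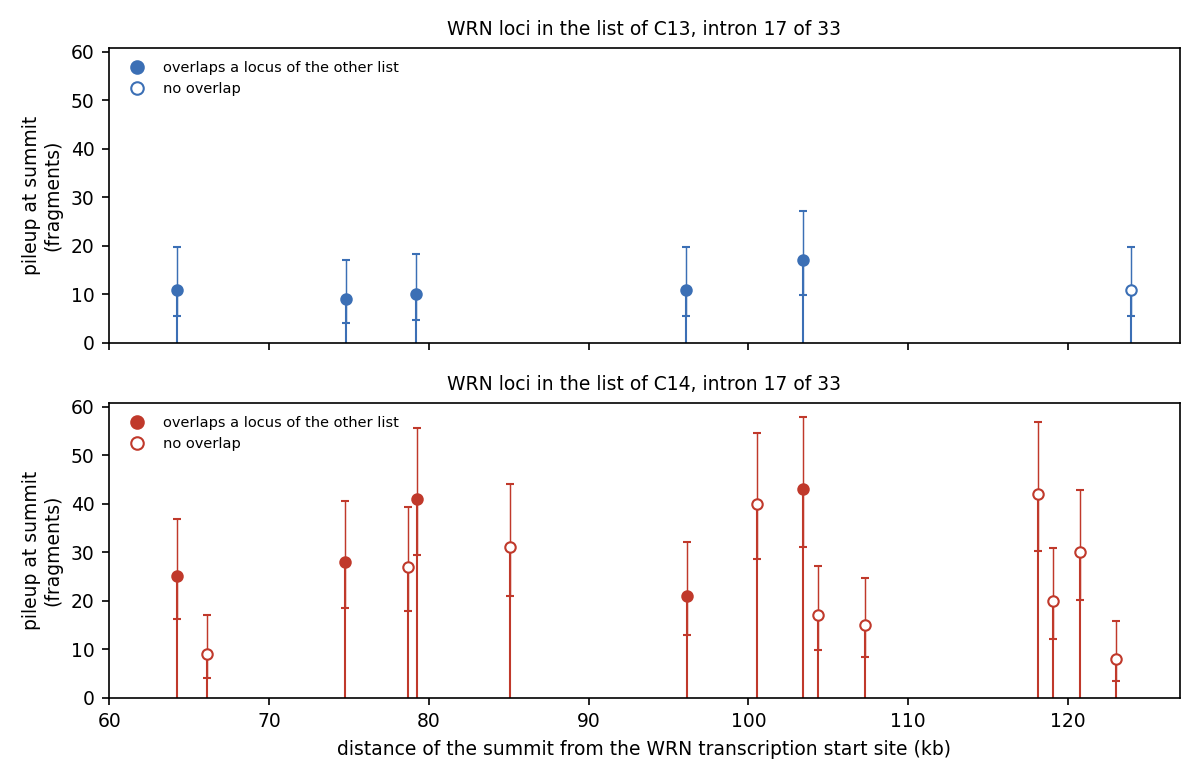
Pileup in fragments at each WRN summit against its distance from the WRN TSS in kb, with C13 above and C14 below. Lines rise from 0, whiskers are 95% exact Poisson intervals, filled points overlap a locus of the other list and open points do not. The 6 loci of C13 sit between 9 and 17 fragments and the 15 of C14 between 8 and 43, along the same 60 kb.

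The loci of C14 were more closely spaced. In C13 the distance from one summit to the next had a median of 10588 bp and ran from 4397 to 20575 bp, whereas in C14 the median was 2913.5 bp and the range 562 to 11100 bp. There were 1.00 loci per 10 kb in C13 and 2.54 in C14 over spans of 59981 and 59132 bp. Summits less than 1000 bp apart occurred at 3 of the 14 steps of C14, at 562, 931 and 965 bp, and at 0 of the 5 steps of C13. Steps of more than 10 kb numbered 3 of 5 in C13 and 2 of 14 in C14. The longest, the 20575 bp of C13 after its highest summit, held 6 C14 summits besides the one shared there.

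Positions called in both bulls lay close together. Of the WRN loci, 5 of 6 in C13 shared at least 1 bp with a C14 call, where 57.0% of all C13 loci did so. Seen from C14, 5 of 15 overlapped a C13 locus, where 36.6% of all C14 loci did so, and the WRN loci of both lists marked 16 distinct places. The summits at the 5 shared places were 26, 26, 30, 31 and 4 bp apart. All 5 were within 50 bp. For other genes 247 pairs overlapped, in which a locus with several summits in 1 interval was paired more than once, and with each locus used once 160 pairs (80.4%) were within 50 bp. The remaining C13 locus, at the far end, had its nearest C14 summit 988 bp away.

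At the shared places every pileup was higher in C14, from 11 to 25, from 9 to 28, from 10 to 41, from 11 to 21 and from 17 to 43 fragments in order along the gene. The ratios were 2.27, 3.11, 4.10, 1.91 and 2.53, with a median of 2.53. Pairs of all other genes had a median ratio of 2.50, with quartiles of 1.87 and 3.14, so the WRN ratio lay near the middle of the ratios of the whole lists. With each locus used once the median of other genes was also 2.50. Summed over the 5 places, 58 fragments in C13 stood against 158 in C14, a ratio of 2.72 with a 95% exact interval of 2.00 to 3.75. For other genes with each locus used once the sums were 3066 and 7898 fragments, a ratio of 2.58.

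**Figure D2:**
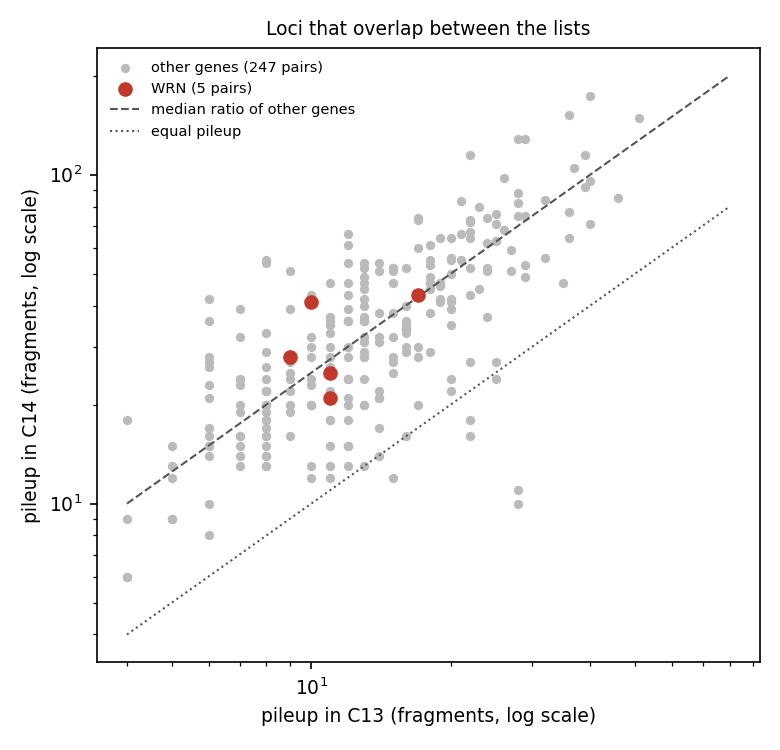
Pileup in C14 against pileup in C13, in fragments on log scales, for loci that overlap between the lists. Red points are the 5 WRN pairs, grey points are 247 pairs of other genes, some of them sharing a locus, the dashed line is their median ratio of 2.50 and the dotted line is equal pileup. The WRN pairs lie on both sides of the dashed line and all above the dotted line.

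Fold enrichment, which divides the pileup by the local background from the same bull's input after 1 is added to each, gave a smaller difference. Its C14 over C13 ratio at the 5 shared WRN places had a median of 1.35 and ranged from 0.794 to 1.91, with 2 of the 5 below 1. For pairs of other genes the median was 0.952, or 0.990 with each locus used once. The local background itself was 5.63 to 8.32 times higher in C14 at the 5 WRN places, with a median of 6.73. At pairs of other genes the median was 5.80, or 6.01 with each locus used once. At 1 of the 5 WRN places, the first along the gene, the C13 background was the lowest value of its list, 0.135. The background ratio of 6.12 there rests on that floor.

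Over the WRN loci the local background had a median of 0.210 fragments in C13 and 1.72 in C14. It lay above the list's median, 0.222 in C13 and 1.09 in C14, by more than 0.001 at 2 of 6 loci in C13 and at 12 of 15 in C14. In C14 it ranged from 0.483 to 3.83 fragments, and 0 of the 15 loci were at the lowest background of the list, 0.359. In the whole C14 list 51 of 614 loci were at that value. In C13, 1 of 6 WRN loci was at the lowest background of its list, against 114 of all 370 loci. At 4 C14 loci it exceeded 3 fragments, and these had pileups of 27 to 43 with fold enrichments of 5.97 to 10.2. The computed background was thus higher in C14 over this intron, and at pairs of other genes its median ratio was 5.80. It is not scaled between the bulls, and the lowest values of the lists already differ, 0.135 in C13 against 0.359 in C14. Relative to the lowest value of its list, it was 1 to 2.94 at WRN loci in C13 and 1.34 to 10.7 in C14. Input coverage was not compared, and the part of the background in the number of calls was not tested.

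**Figure D3:**
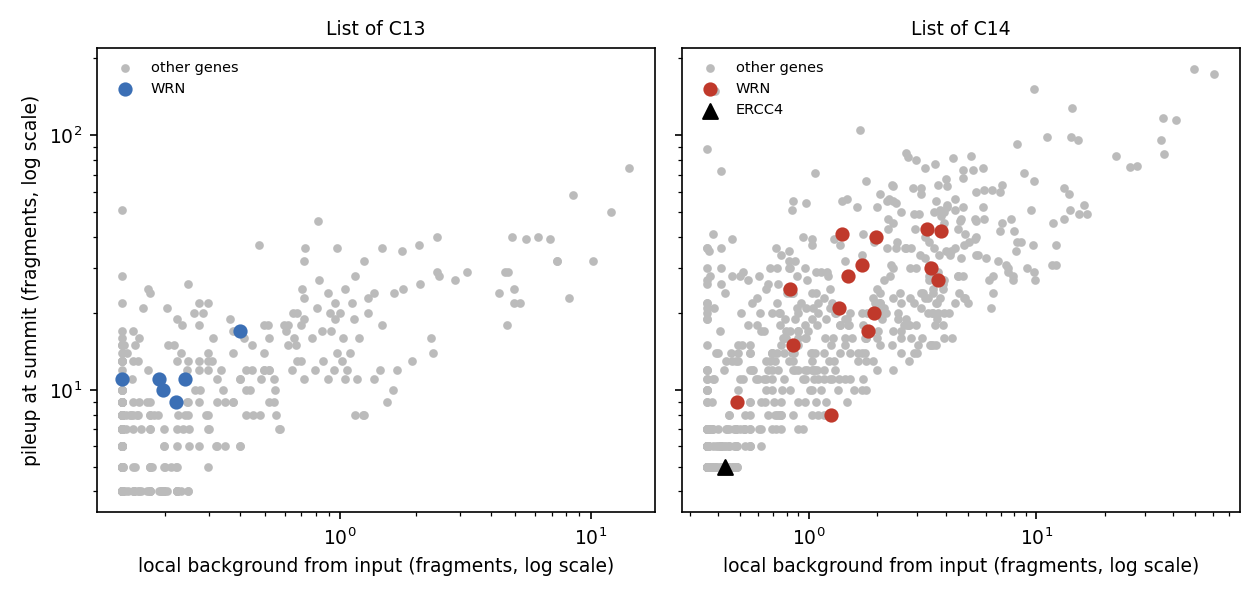
Pileup at the summit against the local background from the input, both in fragments on log scales, for every locus of C13 (left) and C14 (right), with WRN in colour and ERCC4 as a black triangle. WRN loci of C14 spread from 0.483 to 3.83 in background, and ERCC4 lies at the lower left with 5 fragments.

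The 10 C14 loci of WRN that overlapped no C13 locus were not all weak. Their pileups ranged from 8 to 42 with a median of 23.5, while the 5 shared loci ranged from 21 to 43 with a median of 28. Their nearest C13 summits were 532 to 5854 bp away, and their median background was 1.88 against 1.40 at the shared loci. The groups overlapped widely in pileup.

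Library totals were not used here, and a rough scaling, which is not a measure of equal sequencing depth, was made from the lowest local background of each list, 0.135 in C13 and 0.359 in C14. Pileup and background of C14 were divided by 2.66, and loci were kept if the Poisson test still reached the weakest C13 call and the fold stayed over 2. With this scaling 12 of the 15 WRN loci were kept, against 56.2% of all C14 loci. Of the 12 kept, 5 overlapped a C13 locus, against 51.6% of all kept C14 loci, and the other 7 had scaled pileups of 5.64 to 15.8. The 3 loci not kept had original pileups of 9, 17 and 8. The scaling stands on the lists alone, and the part of depth in the number of WRN loci was not tested. With a milder factor of 1.5, chosen after seeing the data, 14 of the 15 were kept, against 78.8% of all C14 loci.

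WRN is a long gene, but 45 other genes in the lists were at least as long, and the median length over the 353 listed genes was 32744 bp. By number of loci WRN held rank 4 among 291 genes in C14, after ST3GAL4 with 26, FAM207A with 22 and POFUT2 with 16. The loci of those 3 genes lay outside the gene interval they were assigned to. Counted by annotated intron, whatever gene a locus was assigned to, WRN intron 17 held rank 3 of 59 introns in C14 with its 15 loci and rank 4 of 40 in C13 with its 6. In C14 an intron of KIRREL3 held 26, all assigned to ST3GAL4, and an intron of RNF122 held 17. In C13 those 2 introns held 12 and 13 loci, and 1 of ADAMTS3 held 7. Dense groups of loci in 1 intron were thus not particular to WRN. KIRREL3 was named after its values were seen. In C13, 9 other genes had at least 6 loci, namely FAM207A, ST3GAL4, TTI2, TMEM261, ADAMTS3, POFUT2, C14H8orf33, LYRM1 and TLE4. The nearest listed loci of other genes were 1.17 Mb before the WRN loci, assigned to SARAF in both bulls, and about 2.07 Mb (C13) and 2.10 Mb (C14) after them, assigned to TTI2. No other listed locus lay between these and the WRN loci.

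The loci assigned to TTI2 and RNF122 made another group on this chromosome, in the 1 intron of RNF122 given above. It had 13 loci in C13 and 17 in C14 over 477 and 451 kb, with median spacings of 36.1 and 16.4 kb against 10.6 and 2.91 kb for WRN. Its median pileups, 11 and 25, were near those of WRN. Its loci overlapped the other list at 7 of 13 places in C13 and 7 of 17 in C14.

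The single ERCC4 locus (NCBI gene 516371, chr25:12923482-12964785 in bosTau8, plus strand, 41304 bp) was annotated as promoter within 1 kb. It lay 585 to 923 bp after the TSS, hence inside the gene, with its summit at 648 bp. Its pileup in C14 was 5 fragments (95% exact Poisson interval 1.62 to 11.7) on a local background of 0.429, a fold enrichment of 4.20 and a q of 0.0278 (1.56 as −log10). ERCC4 was therefore among the weakest calls of the list. Only 16 of the 614 C14 loci (2.61%) had a smaller −log10 q, and 41 (6.68%) had a pileup of 5 or less.

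No C13 locus was assigned to ERCC4. The nearest loci of either list were RBFOX1, 8.10 Mb before, and LYRM1, 5.97 Mb after, in both bulls. Chromosome 25 held 12 loci of C13 and 20 of C14. Divided by 2.66 so that the lowest backgrounds match, the ERCC4 pileup came to 1.88 fragments and the locus was not kept, nor was it kept with the milder factor of 1.5. With 5 fragments in C14, no difference from C13 can be read from the missing call. The lists hold only called loci, and the C13 coverage at this place was not analysed here.

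Among the 10 promoter loci of C14, ERCC4 had the widest interval, 339 bp against 196 to 262 bp. Its pileup of 5 was shared by 3 others, LYZL4, PGAP1 and DUSP26, and 1 other had a smaller −log10 q. Its G + C share of 54.6% was below the median of 58.8% of the other 9, which ranged from 44.2% to 61.5%, and 3 of the 9 were lower. None of the other 9 had a higher guanine share as listed. Since no strand is named, the richer of guanine and cytosine was also compared, and 2 of the other 9 were then higher than the 40.7% of ERCC4.

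**Figure D4:**
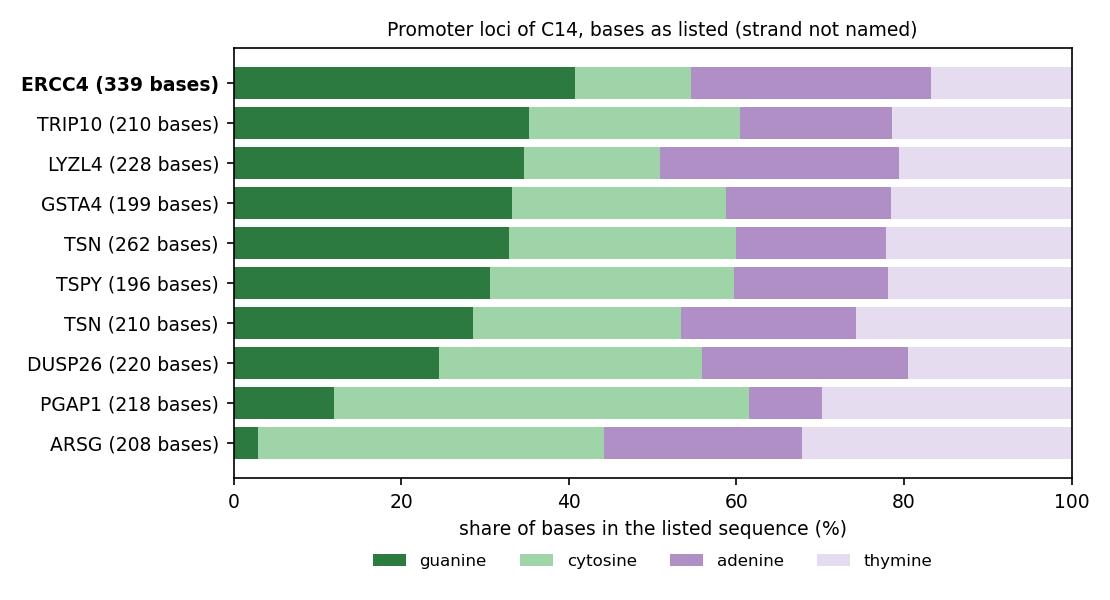
Share of each base, in percent, in the listed sequence of each of the 10 promoter loci of C14, ordered by guanine. ERCC4, in bold, is at the top with 40.7% guanine, and PGAP1 is among the sequences richer in cytosine as listed.

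The guanine runs shown in capitals above were searched as GGG on the listed strand and CCC for the other strand, with overlapping matches in a longer run counted once. GGG occurred in 9 of the 10 promoter sequences and CCC in 10 of 10. ERCC4 had 5.60 runs per 100 bases on its richer strand, and the other 9 had 0.962 to 5.50 with a median of 3.06. The pattern of 4 GGG runs separated by 1 to 7 bases, the usual search pattern for a guanine quadruplex, had 0 matches in ERCC4 and in 0 of the 10 sequences on either strand. No match means only that this pattern is not in these windows.

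A list of DNA repair genes with 111 current symbols was searched in both bulls by the gene symbol a locus was assigned to, and 2 had a locus in C13 and 2 in C14, or 1.80% in each. Of 21666 protein-coding genes named by RefSeq, 0.849% had a locus in C13 and 1.29% in C14. The repair list was written with earlier results of these data known, and its share depends on which genes it holds. Counts this small, near these shares, do not set repair genes apart from other genes, and the counts by pathway are a description only. Of 22 base excision repair genes, the pathway that removes 8-oxoG itself and which includes OGG1, MUTYH, NEIL1 and APEX1, 0 had a locus in either bull. Of 24 nucleotide excision repair genes only ERCC4 had one, and its partner ERCC1 had none. Of 13 RecQ helicases and partners, among them BLM, RECQL and RECQL4, only WRN had loci. Of 52 genes of break, mismatch and crosslink repair and translesion synthesis 1 had a locus assigned to it, XRCC4, which joins broken ends together with LIG4.

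The XRCC4 locus was found in C13 only, at chr7:85353003-85353205 in intron 3 of 7, and overlapped no C14 locus. Its pileup was 4 fragments (95% exact Poisson interval 1.09 to 10.2) and its fold enrichment was 4.21, at a −log10 q of 1.81. It was thus a weak call like that of ERCC4. By assigned symbol, WRN was the only repair gene of the list with loci in both bulls. By the annotated intron or exon, FANCC, a gene of crosslink repair, also held loci in both bulls, in intron 14 of 21, all assigned to TSPY. They were 1 locus in C13, with a pileup of 13, and 3 in C14, with pileups of 49, 45 and 17, of which those with 49 and 45 were summits of the same interval. No other gene of the list was added when loci were counted in this way.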

How the data were processed

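The reads were 101-bp pairs from 1 library of 8-oxoG-enriched sperm DNA and 1 of input DNA for each bull. Alignment by the authors used Isaac and the bosTau8 genome, Picard took out duplicates, and MACS2 called peaks for each bull against its input. ChIPseeker gave the annotation, and the authors retained calls whose fold exceeded 2 at q below 0.05. The deposited pileup is a signal, the fragments at the summit, not normalized between the bulls. The fold enrichment the authors deposited is a ratio of pileup to local background, with 1 added to each. The q the authors deposited is a −log10 value.

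From these, the local background was computed as pileup plus 1, divided by the fold, minus 1. The −log10 p recomputed from it by the Poisson tail matched the deposited one to a relative difference of at most 4.39e-06, with 1 of the 984 loci not recomputed. Loci overlapped if they shared at least 1 bp. Pileups have exact Poisson intervals and ratios of sums exact Clopper-Pearson intervals, at 95%. Library totals were not used here, and C14 was scaled by the lowest background of each list. The functions were tested on simulated data. Python 3.11.15 was used with pandas 2.3.3, numpy 2.4.6, scipy 1.17.1 and matplotlib 3.10.9.

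WRN, ERCC4 and the repair gene list were chosen with earlier results of these data known. The genes named are WRN and ERCC4, repair genes with a locus, the genes of the nearest loci, genes with as many loci as WRN, and at most 3 others with a promoter locus. Outside this rule, RNF122 and KIRREL3 are named for their introns and some repair genes without a locus as examples of their group. The promoter gene TSPY is named for FANCC loci assigned to it, and the remaining promoter genes appear only in a plot. FANCC was named after its values were seen. Coordinates and gene models, with the numbering of introns, are those of the lists in bosTau8. Symbols were matched by NCBI gene number to RefSeq names of another assembly, ARS-UCD2.0, of which no coordinates were used and gene length only to compare WRN in words. Coverage outside the loci was not analysed here.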

Additional observations from a re-analysis of the deposited data

How the results depend on the processing

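Of 39 alternative values for 10 results, 30 stayed within the limits set (1.5 times for counts and distances, the 95% interval for the pileup ratio and the G + C share) and 9 moved. The number of ERCC4 loci in C14 went from 1 to 0 with a −log10 q of at least 2 or 5, and with C14 scaled by the lowest backgrounds, by the pileup ratio of other shared loci or by a factor of 1.5, the last 2 chosen after seeing the data. The G + C share around the ERCC4 summit was 53.3% and, with the listed sequence read as the minus strand (also chosen after seeing the data), 55.3%. Intervals at most 1000 bp apart gave 8 WRN loci of C14 near a C13 locus in place of 5. That rule was applied to WRN loci only, so no share of all C14 loci stands beside the 8. The median C14 over C13 ratio at shared WRN places, 2.53, became 1.35 with fold enrichment, 1.01 when divided by the median ratio of all other shared loci, and 0.9504 relative to the ratio of lowest backgrounds. The number of WRN loci in C14 was 12 to 15 under every setting and 6 in C13 throughout. The −log10 q of ERCC4, 1.56, is below both cuts, and 1.01 and 0.9504 are the same 2.53 divided by 2.50 and by 2.66. The cause of the other shifts was not tested. No paired analysis was possible because each bull has 1 library of each kind and no result comes from a test. For the same reason no replicate could be left out. Pileups under 10 fragments, such as that of ERCC4, have intervals too wide to order them.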
